A study of Homo sapiens with 36 samples.

Results

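The HOXA, HOXB, HOXC and HOXD gene clusters were examined for open chromatin in BT549, an established line of triple-negative breast cancer cells. The clusters were taken as the 39 protein-coding genes whose symbol is HOXA, HOXB, HOXC or HOXD followed by a number, of 19974 protein-coding genes in the RefSeq gene table, and they lie on chromosomes 7, 17, 12 and 2. The assay was ATAC-seq, in which a transposase cuts accessible DNA and leaves tags behind, and the deposited files list the peaks of each library. A HOX peak had its centre inside a HOX gene or within 10 kb of either end. Peaks that overlapped between libraries of the same experiment were joined to form regions. A region counts as held by a library with a peak in it. This gave 191 HOX regions of 204358 in the GATA6 experiment, 163 of 189959 in the BRM014 experiment and 148 of 128681 in the ATPase experiment, and 209 of 259704 when all 36 libraries were merged.

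HOX genes encode homeodomain transcription factors that give cells their position along the body axis, and they lie in each cluster in the order of the body levels at which they act in the embryo. Their chromatin is a textbook case of control by Polycomb and Trithorax proteins, and SWI/SNF, the remodelling complex that slides and evicts nucleosomes with the ATPase BRG1 or BRM, was first linked to HOX control through the fly gene brahma. The clusters also hold microRNA genes of the miR-10 and miR-196 families and long noncoding RNAs such as HOTAIR in HOXC, HOTTIP near HOXA13 and HAGLR in HOXD. In adult cells the pattern of open and closed HOX genes is retained as a mark of where a tissue came from, and it is often altered in breast cancer.

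In the GATA6 experiment (3 libraries per group) the groups were siGATA6_DEX, siGATA6_Veh, siCtl_DEX and siCtl_Veh: siRNA against the transcription factor GATA6 or control siRNA for 72 h, with 500 nM dexamethasone (DEX), which activates the glucocorticoid receptor, or vehicle for 2 h. In the BRM014 experiment (4 per group) they were DEX_BRM014, BRM014, DEX_DMSO and DMSO: 10 µM of BRM014, which inhibits both SWI/SNF ATPases, or its solvent DMSO, together with 500 nM DEX or none, each lasting 4 h. In the ATPase experiment (4 per group) siRNA against BRG1 and BRM together (siBRG1_siBRM) was set against control siRNA (siCtl_only), with no duration given in the labels. All groups are wild-type BT549, a single line, and the titles number biological replicates. The study asks how the glucocorticoid receptor, GATA6 and SWI/SNF shape chromatin access. Peak lists do not measure RNA, so the knockdowns could not be checked here. In a bulk library a peak in fewer cells and a weaker opening in every cell cannot be told apart.

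The libraries held 37184 to 131423 peaks, of which 32 to 133 HOX regions each. Total read depth is not in the files. The lowest background pileup, recovered from the fold and p of weak peaks, ran from 0.235 to 0.677, and the GATA6 experiment had the higher levels, so counts were compared within an experiment. HOX peaks were weaker than the average peak of their library: their median deposited fold over local background was 5.43 to 6.92, against 7.59 to 9.39 for all peaks. HOXD peaks differed, with a mean of the library medians of 9.16 in siGATA6_DEX, 9.36 in siCtl_DEX and 9.84 in BRM014 libraries, above the 8.49, 8.71 and 8.47 of all peaks there, while in the other groups HOXD too lay below. On the rank by deposited −log10 q within a library, where 100 is the best peak, the median HOX peak stood between 28.7 and 45.1. Among gene ends that mark cell types, those of the mesenchymal genes VIM, CDH2, FN1 and AXL had a peak within 1 kb in 36 of 36 libraries, ZEB1 in 32 and CALD1 in 0. Of 6 luminal epithelial genes, the oestrogen receptor gene ESR1 had a peak in 0 of 36 and FOXA1 in 36, and CDH1, EPCAM, ESRP1 and KRT8 in 20, 11, 10 and 22. Peaks also stood at SPI1 and SNAP25 in 36, at PTPRC in 30 and CD3E in 16, and at RBFOX3 and GFAP in 0, so a peak at a gene end alone did not sort cell types.

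The 4 clusters differed in how densely they were opened. In the GATA6 experiment, HOXC had 67 regions, or 48.8 per 100 kb of the windows searched, HOXB had 60 or 42.3, HOXA had 44 or 34.6, and HOXD had 20 or 16.2. The order was the same in the BRM014 experiment, with 62, 53, 27 and 21 regions and densities of 45.2, 37.4, 21.2 and 17.0. In the ATPase experiment the densities were 37.9 for HOXC, 35.3 for HOXB, 25.2 for HOXA and 11.3 for HOXD. Regions covered 11.5% of the HOXC windows and 2.94% of the HOXD windows in the GATA6 experiment. Of the HOX regions, 57.6% in the GATA6 experiment, 55.2% in the BRM014 experiment and 57.4% in the ATPase experiment had their centre inside a HOX gene.

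**Figure D1:**
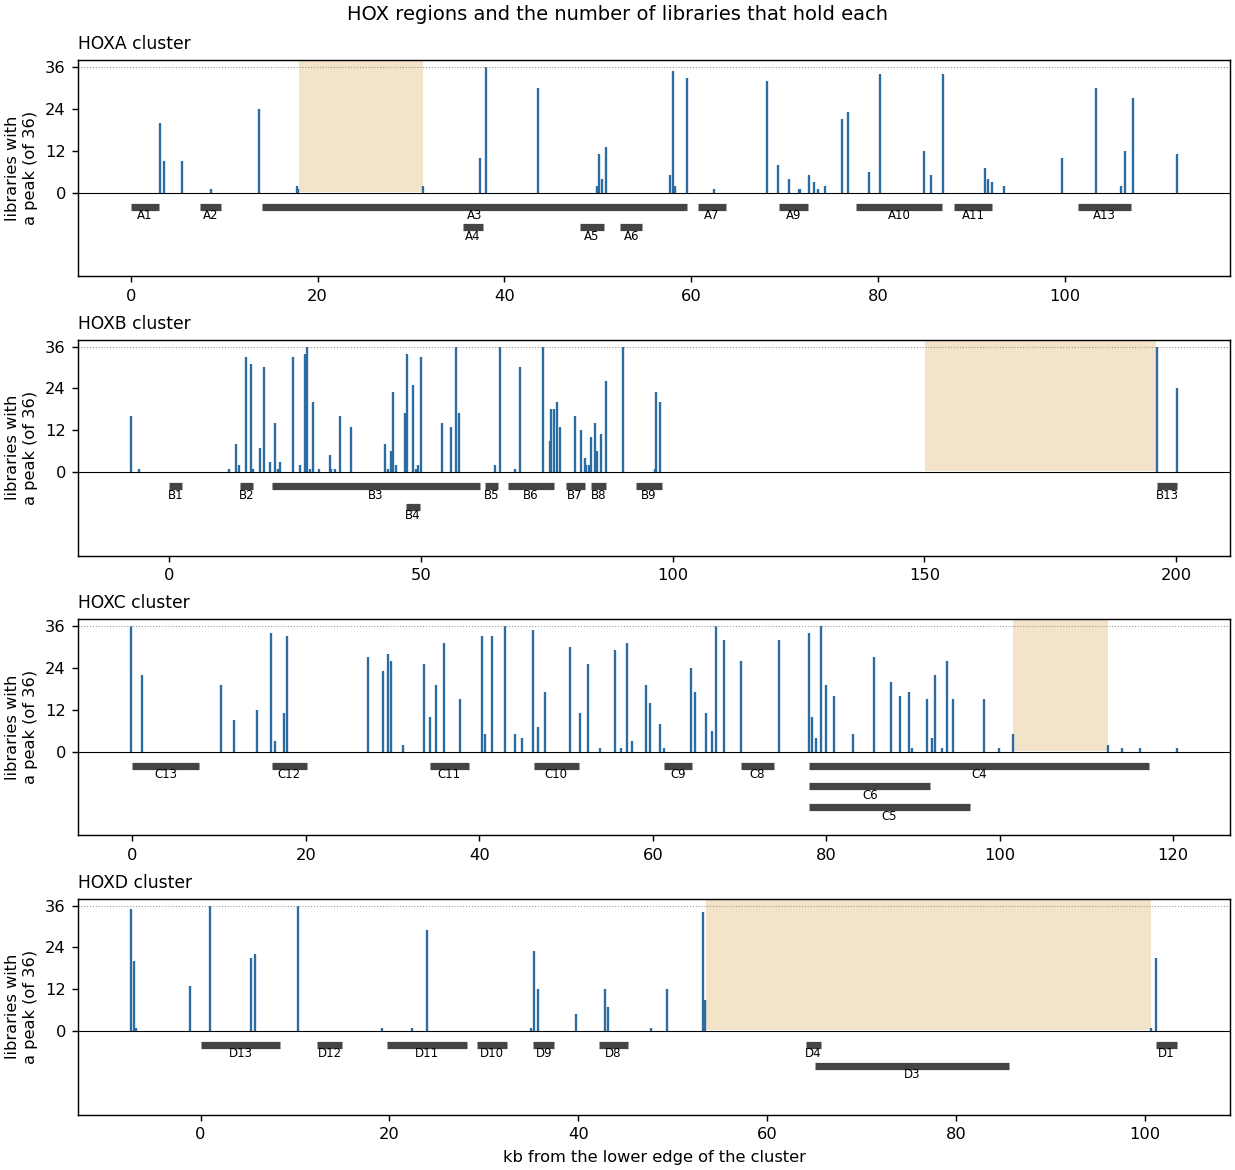
Map of the 4 HOX clusters, with kb from the lower edge of the cluster on the x axis and, for each of the 209 regions merged over all libraries, the number of the 36 libraries with a peak there as the height of a line; dark grey bars are the HOX genes and shading marks the longest stretch without a region in each cluster. The HOXD shading covers 47.1 kb with HOXD3 and HOXD4, while regions of HOXC stand along the whole cluster on both sides of its 10.9 kb stretch inside HOXC4.

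The longest stretch without a peak in any of the 36 libraries lay in HOXD. It ran for 47.1 kb, chr2:176140979-176188086 (hg38, as all coordinates here), and contained HOXD3 and HOXD4 whole, which belong to the anterior side of the cluster. In HOXB the longest such stretch was 45.9 kb, chr17:48678701-48724600, between HOXB9 and HOXB13, with no HOX gene in it. In HOXA it was 13.3 kb within the long gene unit of HOXA3, and in HOXC 10.9 kb within HOXC4. HOXB1, the most anterior HOXB gene, had only 2 regions within 10 kb in the GATA6 experiment, 2 in the BRM014 experiment and 1 in the ATPase experiment. At HOXB3, by contrast, 38, 32 and 28 regions were found, and its annotated unit spans 41372 bp and takes in HOXB4.

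A core of 13 regions was held by all 36 libraries, 6.22% of the 209 HOX regions against 9.23% of the 259704 regions. The best ranked of them in HOXC was chr12:53938350-53938960, 176 bp from the end of HOXC13 and within HOXC13-AS, where the deposited fold was 14.5 to 26.5 with a median of 20.1 over the 36 libraries. In HOXB it was chr17:48585392-48585665 inside HOXB3, with folds of 13.3 to 26.2 and a median of 18.0. In HOXD it was chr2:176097651-176097885, 1824 bp from HOXD13, a posterior gene of limb and genital patterning, with folds of 6.87 to 28.1 and a median of 18.5. HOXA had a single such region, chr7:27130846-27131171, at the end of HOXA4 and inside the HOXA3 unit, with folds of 5.27 to 28.8 and a median of 15.7. Of the others, 5 lay in HOXB (among them 1 at 70 bp from HOXB13, also in PRAC2, and 1 at HOXB5 in HOXB-AS3), 3 in HOXC and 1 inside HOXD13. The regions held everywhere thus stood at both anterior and posterior genes.

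In each experiment a smaller share of HOX regions than of all regions was held by 1 library only, and a smaller share was held by all libraries. In the GATA6 experiment 33.0% of HOX regions were held by all 12 libraries and 13.1% by 1 library, against 35.1% and 24.2% of all regions. In the BRM014 experiment the shares were 11.0% and 20.9%, against 15.3% and 35.2%. In the ATPase experiment they were 15.5% and 26.4%, against 22.4% and 30.2%. HOX regions lay within long noncoding RNA genes more often than others did: 33.0% against 15.5% of all regions in the GATA6 experiment, 31.9% against 15.2% in the BRM014 experiment and 30.4% against 15.5% in the ATPase experiment. Within 1 kb of an end of a HOX gene lay 40.3%, 39.3% and 39.2% of them in these experiments, whereas 14.8%, 15.1% and 19.7% of all regions lay that near an end of a protein-coding gene. These shares describe the clusters and were not tested, because the many short genes of a cluster also bring its ends close together.

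Start sites were read from annotated promoters. RefSeq promoter windows (GRCh38.p14, 250 bases before to 50 after a start) matched 20 of the 39 genes with 27 windows, HOXC4 and HOXC5 sharing 1 window that is counted under both names. HOXB was matched only at HOXB1, and HOXC only at this shared window. The shares therefore describe mostly HOXA and HOXD promoters, and HOXA3 alone has 7 windows. Of the 27 windows, 16 or 59.3% overlapped no peak of any library, against 46.2% of 34961 windows of all genes, and 1 or 3.7% was held by all 36 libraries, against 32.8%. Many HOX promoters are rich in CpG, the dinucleotide of CpG islands, with a median of 22 per window (0 to 44) against 14 in all windows. Among windows with at least 20 CpG, 8 of 15 HOX windows or 53.3% had no peak, against 9.58% of the 14420 such windows, and 1 or 6.67% was held by all libraries, against 63.9%. All 15 belonged to HOXA or HOXD, so the promoters of HOXB and HOXC were not covered there. Windows with no peak belonged to HOXD3, HOXD4, HOXD8, HOXD10, HOXD11 and HOXD12, to HOXA2, HOXA6 and HOXA7, to HOXB1, to 1 of the 2 windows of HOXA10 and to 5 of the 7 of HOXA3.

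Promoter windows are shown for HOXA4, which was open in every library, for HOXD8, a CpG-rich window without a peak in any, and for HOXD1 and HOXA13, whose peak was missing from most libraries with BRM014 or siBRG1_siBRM. Sequences are from RefSeq and run 5′ to 3′ on the strand of the gene, and capitals mark the bases inside the region merged over all 36 libraries.
HOXA4 (chr7:27130708-27131007, minus strand, 27 CpG): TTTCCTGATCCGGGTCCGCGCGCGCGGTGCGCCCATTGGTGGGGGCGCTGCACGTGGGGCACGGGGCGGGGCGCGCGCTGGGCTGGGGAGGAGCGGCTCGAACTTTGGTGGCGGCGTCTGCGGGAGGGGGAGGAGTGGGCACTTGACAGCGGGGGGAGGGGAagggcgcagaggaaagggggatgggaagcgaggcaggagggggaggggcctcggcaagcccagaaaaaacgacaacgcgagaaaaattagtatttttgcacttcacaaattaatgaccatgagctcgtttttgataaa
HOXD8 (chr2:176129455-176129754, plus strand, 34 CpG): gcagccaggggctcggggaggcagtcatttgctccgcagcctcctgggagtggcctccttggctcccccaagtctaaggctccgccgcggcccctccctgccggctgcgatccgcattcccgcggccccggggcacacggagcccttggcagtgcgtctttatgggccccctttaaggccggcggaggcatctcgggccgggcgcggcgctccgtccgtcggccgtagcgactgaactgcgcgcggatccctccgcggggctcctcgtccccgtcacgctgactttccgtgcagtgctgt
HOXD1 (chr2:176188418-176188717, plus strand, 36 CpG): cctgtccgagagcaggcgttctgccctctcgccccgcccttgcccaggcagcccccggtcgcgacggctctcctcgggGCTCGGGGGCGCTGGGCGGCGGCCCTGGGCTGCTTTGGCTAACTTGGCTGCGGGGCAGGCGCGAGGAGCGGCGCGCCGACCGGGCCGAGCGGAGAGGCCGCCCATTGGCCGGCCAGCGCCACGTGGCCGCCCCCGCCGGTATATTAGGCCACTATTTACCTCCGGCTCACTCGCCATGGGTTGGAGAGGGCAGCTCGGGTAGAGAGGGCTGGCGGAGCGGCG
HOXA13 (chr7:27200042-27200341, minus strand, 44 CpG): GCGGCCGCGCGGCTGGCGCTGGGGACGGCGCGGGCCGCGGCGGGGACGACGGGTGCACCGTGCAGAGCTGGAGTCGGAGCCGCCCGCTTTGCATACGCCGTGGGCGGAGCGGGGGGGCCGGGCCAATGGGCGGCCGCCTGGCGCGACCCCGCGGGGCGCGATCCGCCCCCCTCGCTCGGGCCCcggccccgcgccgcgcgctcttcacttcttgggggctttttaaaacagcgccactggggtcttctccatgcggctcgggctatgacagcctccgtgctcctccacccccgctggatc
The open stretch lay on the upstream side of the window in HOXA4 and in HOXA13, with 162 and 183 of 300 bases, while in HOXD1 it took in 222 bases up to the end of the window. Searched on both strands, the GATA motif AGATAA stood in 2 of the 27 HOX windows or 7.41%, both of HOXA3, against 10.3% of 35116 windows. The AP-1 motifs TGAGTCA and TGACTCA stood in 0 HOX windows against 4.95%, and the full palindromic glucocorticoid response element in 0 HOX windows and in 1 window of all genes. The TEAD motif GGAATG stood in 8 HOX windows or 29.6%, against 14.0%, where the shared window of HOXC4 and HOXC5 carries it and counts under both names. A match is a string in the window and no measure of binding.

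Fewer HOX regions per library were held wherever SWI/SNF was blocked, by the inhibitor or by siRNA. In DEX_BRM014 libraries 56, 59, 58 and 42 HOX regions were held (53.8 ± 7.93, SD, n = 4), against 82, 78, 86 and 76 in DEX_DMSO libraries (80.5 ± 4.43). In BRM014 libraries there were 52, 67, 54 and 32 (51.2 ± 14.5), against 80, 95, 83 and 93 in DMSO libraries (87.8 ± 7.37). In siBRG1_siBRM libraries there were 74, 68, 41 and 60 (60.8 ± 14.4), against 82, 92, 83 and 82 in siCtl_only libraries (84.8 ± 4.86). In all these pairs every library with the inhibitor or the siRNA lay below every control library. In the GATA6 experiment siGATA6_DEX libraries held 115 to 127 HOX regions (122 ± 6.43) and siCtl_DEX libraries 117 to 123 (119 ± 3.46), which overlapped. The siGATA6_Veh libraries held 112 to 120 (117 ± 4.16), all below the siCtl_Veh libraries at 123 to 133 (127 ± 5.51, SD, n = 3 each). As shares of the HOX regions these were 58.6 to 62.8% and 64.4 to 69.6%. Of all regions of the experiment, siGATA6_Veh libraries held 53.0 to 58.9% and siCtl_Veh libraries 55.1 to 55.8%, which overlapped. The difference in HOX counts was not tested.

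**Figure D2:**
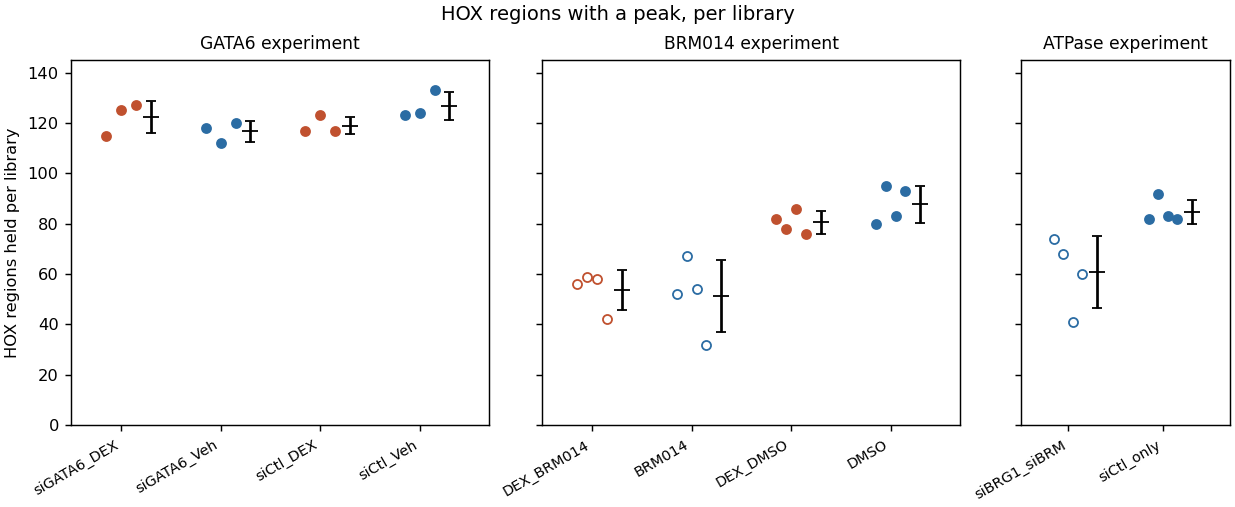
HOX regions held per library (y axis, number of regions) by group (x axis), in 1 panel per experiment; points are libraries, red with DEX and blue without, open where BRM014 or siBRG1_siBRM was given, and the bar beside them is the mean ± SD. The BRM014 libraries sit between 32 and 67, below the DMSO libraries at 80 to 95.

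All 4 clusters had lower means with BRM014. HOXA had 8.25 ± 2.22 regions in BRM014 and 14.2 ± 1.89 in DMSO libraries, and HOXD had 4.75 ± 1.89 and 11.0 ± 1.63. HOXB had 17.0 ± 4.55 and 29.2 ± 4.5, and HOXC 21.2 ± 6.18 and 33.2 ± 1.5 (SD, n = 4 each). With siBRG1_siBRM the means were 8.75 ± 4.57 for HOXA, against 15.5 ± 2.52 in siCtl_only libraries, and 5.0 ± 0.816 for HOXD, against 9.25 ± 1.5. These libraries also had fewer peaks in the whole genome: a mean of 55519 in DEX_BRM014 against 98808 in DEX_DMSO, 53586 in BRM014 against 94069 in DMSO, and 50934 in siBRG1_siBRM against 85769 in siCtl_only. The recovered background pileup differed by less than its spread, at 0.275 ± 0.0306 in BRM014 and 0.28 ± 0.0298 in DMSO, and at 0.281 ± 0.0208 in siBRG1_siBRM and 0.293 ± 0.0463 in siCtl_only libraries. As a share of the regions a library held, HOX regions made up 0.125 ± 0.0112% in siBRG1_siBRM libraries, with each of the 4 above each of the siCtl_only libraries at 0.102 ± 0.00554%. The share was 0.103 ± 0.0148% in DEX_BRM014 against 0.0848 ± 0.004% in DEX_DMSO, and 0.1 ± 0.0151% in BRM014 against 0.0969 ± 0.00325% in DMSO libraries, where the ranges overlapped.

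Regions chosen in another experiment were then followed. The siCtl_Veh cells of the GATA6 experiment held 92 HOX regions in all 3 libraries. Of these, DEX_BRM014 libraries held 45.4 ± 4.2% and DEX_DMSO libraries 72.5 ± 4.98%, while of all 89038 such regions in the genome they held 49.6% and 80.6%. BRM014 libraries held 46.2 ± 8.88% and DMSO libraries 76.6 ± 5.9%, beside 48.8% and 82.8% genome-wide. The siBRG1_siBRM libraries held 53.8 ± 13.8% of the HOX regions and siCtl_only libraries 74.2 ± 5.54% (SD, n = 4 each), beside 48.0% and 79.3% genome-wide. HOX regions were thus held less often than regions at large in the control libraries and, in siBRG1_siBRM libraries, more often on average.

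**Figure D3:**
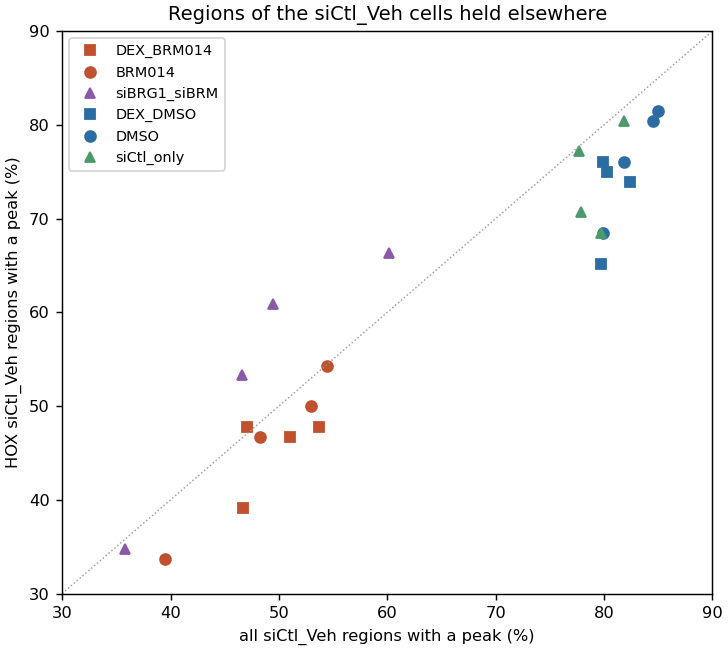
Percent of the regions held by all 3 siCtl_Veh libraries that each library of the other experiments held, for all such regions (x axis) and for the 92 HOX regions (y axis); each point is a library and the dotted line marks equal shares. The libraries with BRM014 or siBRG1_siBRM stand at the lower left and their controls at the upper right, where all 12 lie below the line.

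A region was called lost when every library of the control group and no library of the treated group held it, and gained in the opposite case. BRM014 without DEX lost 12 of 163 HOX regions and gained 0, against 8.39% lost and 0.0321% gained of all regions. BRM014 with DEX lost 7 and gained 0, against 9.21% lost and 0.0632% gained of all. With siBRG1_siBRM 2 of 148 were lost and 0 gained, against 6.61% lost and 0.0272% gained of all. Without siBRG1_siBRM replicate 1 or 4 or siCtl_only replicate 1 the 2 became 4. As shares, HOX losses were 7.36% for BRM014 without DEX, 4.29% for BRM014 with DEX and 1.35% for siBRG1_siBRM. Each stood below the share of all regions, most narrowly for BRM014 without DEX. Of regions within 10 kb of any protein-coding gene, 7.32%, 8.12% and 5.69% were lost. These differences in share were not tested. With 4 libraries against 4 the exact permutation test of 1 region cannot give a p under 0.0286, and no region passed adjustment in a single comparison. Over both DEX levels, a two-sided exact permutation test within DEX levels (8 libraries against 8), adjusted by Benjamini-Hochberg over 189959 regions, called 7 HOX regions lower with BRM014 and 0 higher, against 7.97% and 0.0184% of all. Before adjustment 28 HOX regions or 17.2% had a p under 0.05, against 17.1% of all.

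The counts were also taken from equal numbers of best ranked peaks, which changes both the number and the strength of the peaks used. When only the best 41026 peaks of each library were used, so that all libraries of the BRM014 experiment had the same number, BRM014 without DEX lost 0 and gained 2 of 69 HOX regions (6.16% lost and 1.52% gained of all), and with DEX it lost 2 and gained 2 (6.77% and 1.86% of all). At 37184 peaks per library, siBRG1_siBRM lost 0 and gained 3 of 72 (4.33% and 1.28% of all). The gains lay at HOXA3 and HOXC11, at HOXA10 and HOXC4, and at HOXC9, HOXB2 and HOXB3. At each of them all 4 control libraries also had a peak among their full peak lists, except at HOXC11, where 3 of 4 did. The HOX regions lost with BRM014 had a median rank of 29.9 in the DMSO libraries, against 43.1 for all lost regions, and ranks of 15.8 to 48.0. The direction of the HOX counts thus differed between all peaks and the best ranked peaks.

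Pooling the 3 settings in which SWI/SNF was blocked (BRM014, DEX_BRM014 and siBRG1_siBRM, 12 libraries) against their controls (12 libraries), with permutation within settings and regions merged over all 36 libraries, was added after the data had been seen. Of 177 HOX regions, 14 passed an adjusted p of 0.05 as lower and 0 as higher, against 12.2% and 0.033% of 199772 regions, and 30 or 16.9% had a p under 0.05 before adjustment, against 19.8% of all. With the best 37184 peaks of every library the counts were 1 lower and 6 higher of 85, against 8.98% lower and 3.35% higher of 69528 regions. None of the 14 regions kept its call there, and those without a peak among the best gave no value. There the difference turned to more libraries with SWI/SNF blocked at HOXD11, HOXA13 and the HOXB3 region at chr17:48575074-48575565, with 3, 1 and 1 more libraries than controls, none of them called. The regions below are those of HOXC, then HOXD and HOXA, then HOXB.

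In HOXC, 1 such region was chr12:53991142-53991480, between HOXC10 and the microRNA gene MIR196A2. Its nearer edge lies 258 bp upstream of the hairpin of MIR196A2, and its centre 1032 bp beyond HOXC10, a posterior gene of lumbar level. In BRM014 and siBRG1_siBRM libraries no peak was called, and in DEX_BRM014 libraries only replicate 3 had one, with a fold of 3.42. In DEX_DMSO libraries the folds were 9.63, 13.0, 9.93 and 8.95, in DMSO libraries 6.59, 6.67, 6.89 and 5.1, and in siCtl_only libraries 4.57, 7.48, 7.61 and 7.26. So 1 of 12 libraries with SWI/SNF blocked and 12 of 12 controls held it (exact permutation within settings, p = 2.92e-05, adjusted p = 0.000745). It was 1 of the 2 HOX regions lost with siBRG1_siBRM. With all peaks it was also called lost with BRM014 without DEX, but not with DEX. With the best 41026 peaks it was called lost with BRM014 in the presence of DEX, but not without DEX. All 12 libraries of the GATA6 experiment held it, with folds of 6.48, 6.25 and 7.36 in siGATA6_DEX, 4.34, 4.11 and 4.74 in siGATA6_Veh, 8.22, 8.33 and 8.63 in siCtl_DEX and 5.87, 7.93 and 5.82 in siCtl_Veh. Without the inhibitor, the folds of each DEX group lay above those of its group without DEX, most narrowly for siCtl_DEX, whose lowest was 8.22, against a highest of 7.93 in siCtl_Veh libraries. With the best 37184 peaks of each library the SWI/SNF difference at this region was 5 fewer libraries (exact permutation, adjusted p = 0.0947).

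The microRNA beside this region belongs to the miR-196 family, which represses HOX mRNAs such as that of HOXB8. Mature sequences are shown to mark which cluster microRNAs share a seed (bases 2 to 8, in capitals), read from RefSeq.
hsa-miR-196a-5p (from MIR196A1 in HOXB and MIR196A2 in HOXC): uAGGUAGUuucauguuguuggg
hsa-miR-196b-5p (from MIR196B in HOXA): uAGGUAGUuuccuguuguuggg
hsa-miR-10a-5p (from MIR10A in HOXB): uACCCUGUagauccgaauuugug
The miR-196 forms share the seed AGGUAGU and differ by A12C, counted from the 5′ end with the base of miR-196a first, while miR-10a has the seed ACCCUGU. The region nearest to MIR196A2 was held by 0 of 4 BRM014, 1 of 4 DEX_BRM014 and 0 of 4 siBRG1_siBRM libraries and by all of their controls. The region nearest to MIR196B, 76 bp away, was held by 2 of 4 libraries in each group of the BRM014 experiment, while 1 of 4 siBRG1_siBRM and 2 of 4 siCtl_only libraries held it. The region nearest to MIR196A1, 4027 bp away, was held by 0 of 4 DEX_BRM014 and 0 of 4 BRM014 libraries, against 3 of 4 DEX_DMSO and 2 of 4 DMSO libraries, and by 3 of 4 siBRG1_siBRM and 3 of 4 siCtl_only libraries. MIR10A, inside HOXB3, had a region at 1153 bp that 33 of 36 libraries held. MIR10B had none nearer than 9325 bp, and that one was held by 9 of 36.

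HOXC held 4 more of the regions lower with SWI/SNF blocked. At chr12:53972335-53972541, within HOTAIR and with its centre 688 bp from HOXC11, 1 of 12 libraries held a peak, against 12 of 12 controls (exact permutation, adjusted p = 0.000745, and 0.059 when peaks had to cover 50% of the region). Among the best 41026 peaks of each library of the BRM014 experiment the direction turned there, with 1 more library with BRM014 than without (exact permutation, adjusted p = 1.0). With all peaks the exception was DEX_BRM014 replicate 4 with a fold of 4.79, while the controls had 5.17, 5.26, 6.48 and 5.14 in DEX_DMSO, 4.94, 3.75, 4.92 and 5.25 in DMSO and 6.03, 6.14, 4.8 and 5.09 in siCtl_only libraries. It was the other HOX region lost with siBRG1_siBRM. HOTAIR is a long noncoding RNA known for interaction with Polycomb repressive complexes. At chr12:54008874-54009022, 37 bp from HOXC8, a thoracic-level gene, 2 of 12 libraries held a peak against 12 of 12 (exact permutation, adjusted p = 0.00249). At chr12:53997831-53998193, 2149 bp from HOXC9, it was 0 of 12 against 8 of 12 (exact permutation, adjusted p = 0.0116). Only 1 of the 4 siCtl_only libraries was among those 8 controls, so the siRNA setting hardly differed there. At chr12:54003553-54003860 just beyond HOXC9 it was 1 against 8 (exact permutation, adjusted p = 0.0209). That call was lost with peaks at a −log10 q of at least 5 and when peaks had to cover 50% of the region. The HOTAIR region and the region before MIR196A2 had the widest difference of the 14, with 11 fewer libraries.

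Of the 14 regions, HOXD and HOXA had 2 each. At the HOXD1 promoter, chr2:176188496-176188761, 0 of 12 libraries with SWI/SNF blocked held a peak, against 9 of 12 controls (exact permutation, adjusted p = 0.00565). Controls that held it had folds of 6.17, 5.59 and 6.98 in DEX_DMSO, 6.45, 7.68, 5.5 and 5.37 in DMSO and 7.25 and 5.53 in siCtl_only libraries, and all 12 libraries of the GATA6 experiment held it. HOXD1 is the most anterior HOXD gene. Upstream of it a region at chr2:176188087-176188182, with a peak in 1 siCtl_DEX library, stood between the promoter region and the 47.1 kb stretch without peaks. At the HOXA13 promoter, chr7:27200159-27200413, 3 of 12 held a peak against 12 of 12 controls (exact permutation, adjusted p = 0.00565). There the folds were 4.23 in DEX_BRM014 replicate 2 and 4.1 and 7.67 in siBRG1_siBRM replicates 1 and 4, against 8.92, 8.37, 6.29 and 6.47 in DEX_DMSO, 6.55, 7.08, 6.93 and 8.42 in DMSO and 5.44, 7.29, 5.67 and 8.51 in siCtl_only libraries. The value of 7.67 lay within the range of the siCtl_only libraries. At chr7:27106600-27106944 beside HOXA3, 2 of 12 held a peak against 10 of 12 (exact permutation, adjusted p = 0.0371). There 2 siBRG1_siBRM and 3 siCtl_only libraries held it, so the siRNA setting hardly differed. Inside HOXD11 at chr2:176111335-176111493, 5 of 12 held a peak against 12 of 12 (exact permutation, adjusted p = 0.043, and 0.0745 without BRM014 replicate 4).

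HOXB had 5 of the 14, none of which was called with siBRG1_siBRM alone. A pair inside HOXB9 were chr17:48625149-48625469, held by 1 of 12 libraries against 10 of 12 controls (exact permutation, adjusted p = 0.0126), and chr17:48625823-48626139, held by 1 against 9 (exact permutation, adjusted p = 0.0209). Inside HOXB3, chr17:48556916-48557098 was held by 0 against 8 (exact permutation, adjusted p = 0.0209) and chr17:48575074-48575565 by 2 against 10 (exact permutation, adjusted p = 0.0371). At chr17:48728655-48728863, 9 bp from the centre to the end of HOXB13, a gene used as a prostate lineage marker and mutated in familial prostate cancer, 2 of 12 against 10 of 12 held a peak (exact permutation, adjusted p = 0.0209). The other edge of HOXB13 carried one of the regions held by all 36 libraries. Other HOXB regions were lost with the inhibitor and not with the siRNA. At chr17:48572879-48573074 inside HOXB3, BRM014 libraries had no peak, while DMSO libraries had folds of 4.83, 6.3, 6.7 and 5.0. With DEX, neither DEX_BRM014 nor DEX_DMSO libraries had a peak, so the loss with the inhibitor was called without DEX only. The siBRG1_siBRM libraries kept folds of 4.79, 7.48, 4.88 and 4.99, beside 4.14, 5.64, 5.7 and 4.86 in siCtl_only libraries. The difference between inhibitor and siRNA was not tested.

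**Figure D4:**
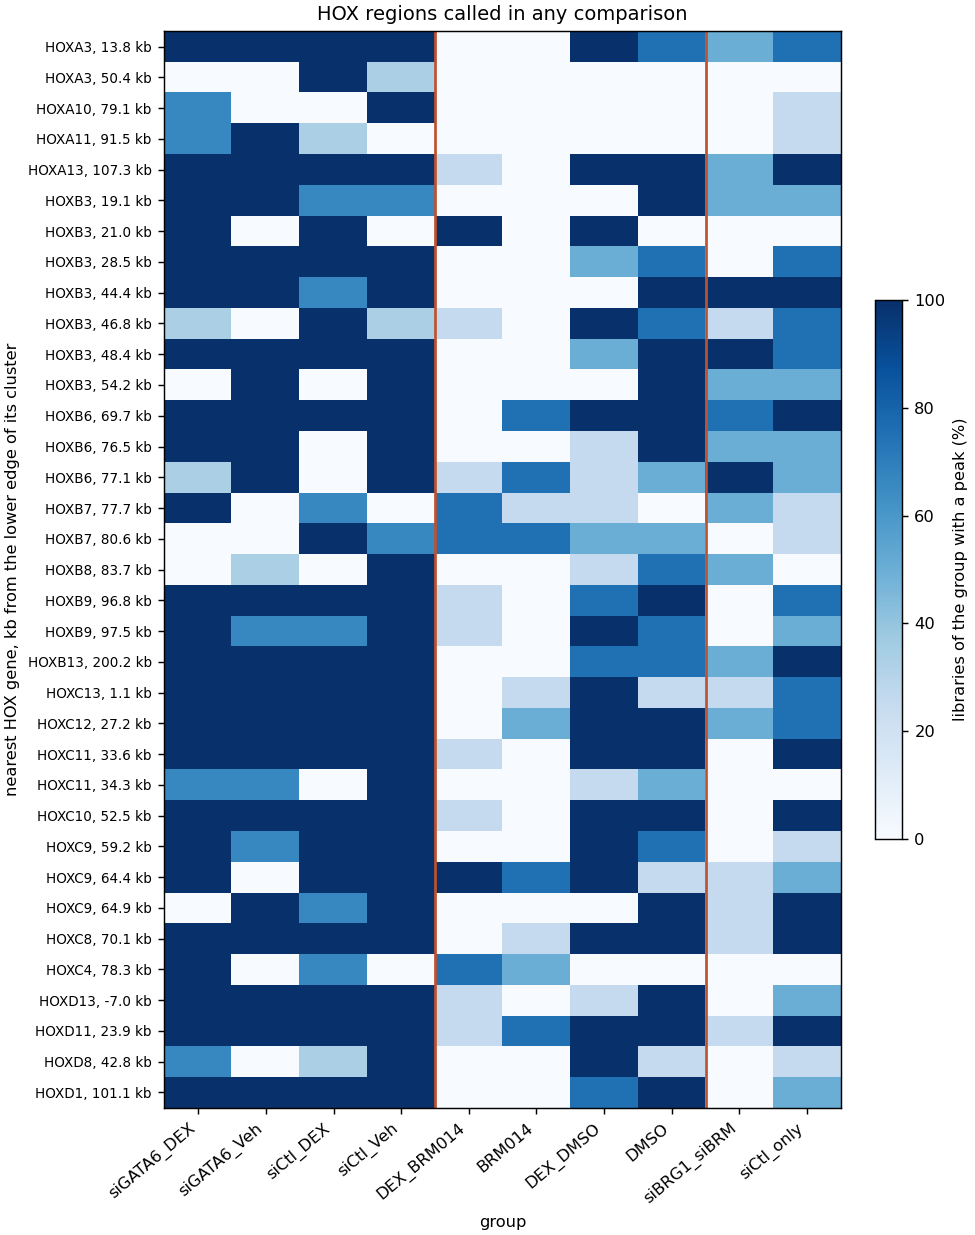
Percent of the libraries of each group with a peak (colour) at the 35 HOX regions called in any comparison, named by the nearest HOX gene and kb from the lower edge of its cluster (y axis), by group (x axis), with red lines between the experiments. The columns DEX_BRM014 and BRM014 are pale at most regions, while the HOXB3 region at 21.0 kb is dark only in the 4 groups with DEX.

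Few HOX regions separated groups with DEX from groups without it. After 2 h in siCtl cells 1 HOX region was gained and 6 lost of 191 (0.524% and 3.14%), against 2.1% and 0.681% of all regions. In siGATA6 cells 4 were gained and 2 lost (2.09% and 1.05%), against 2.02% and 0.509%. After 4 h in DMSO 1 was gained and 4 lost of 163 (0.613% and 2.45%), against 1.33% and 0.383%. With BRM014 1 was gained and 0 lost (0.613% and 0%), against 0.17% and 0.0763%. The lost share was above that of all regions in siCtl, siGATA6 and DMSO cells, on few regions, and was not tested. Of the HOXB regions, 4 of 60 or 6.67% were lost after 2 h in siCtl cells and 1 of 60 or 1.67% in siGATA6 cells. After 4 h it was 3 of 53 or 5.66% in DMSO and 0 of 53 with BRM014. All HOX regions lost in DMSO, the HOXB ones included, had no peak in any BRM014 library. They could therefore not be called lost with BRM014, and the 2 settings cannot be compared there. HOXB gains numbered 1 in siCtl, 2 in siGATA6, 1 in DMSO and 1 in BRM014 cells. With 3 libraries against 3 an exact permutation test cannot give a p under 0.1, so these are counts of separated groups. Gained and lost together became 10 in siGATA6 cells without siGATA6_DEX replicate 3, 8 in DMSO without DMSO replicate 2, and 2 with BRM014 without BRM014 replicate 2 or 4. A test over all 28 libraries of the 4 settings with and without DEX, permuted within settings and added after the data had been seen, called 1 of 204 HOX regions gained and 1 lost, against 0.721% and 0.0146% of 247348 regions, and 10 or 4.9% had a p under 0.05 before adjustment, against 3.99% of all.

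The gained region was chr17:48549377-48549600, inside HOXB3 and HOXB-AS1. All 14 libraries with DEX held a peak and none of the 14 without did, nor any of the 8 of the ATPase experiment (exact permutation within settings, p = 1.02e-06, adjusted p = 0.00935). The deposited folds were 6.04, 6.33 and 3.9 in siGATA6_DEX, 4.84, 5.48 and 4.79 in siCtl_DEX, 6.06, 8.82, 6.94 and 4.35 in DEX_BRM014, and 5.22, 5.66, 5.64 and 3.58 in DEX_DMSO libraries. The peak was thus present with GATA6 siRNA and with BRM014, and its folds in DEX_BRM014 and DEX_DMSO libraries overlapped. HOXB3 is an anterior HOX gene of hindbrain and blood progenitors. The gained peak had a rank of 38.1 in siCtl_DEX libraries. With only the best 37184 peaks of each library, 3 more libraries with DEX than without held the region (exact permutation, p = 0.143, adjusted p = 1.0).

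The lost region was chr17:48582530-48582945, also inside HOXB3, at the noncoding RNA gene HOXBLINC. None of 14 libraries with DEX held it, against 10 of 14 without (exact permutation within settings, p = 7.14e-05, adjusted p = 0.0162). The siGATA6_Veh libraries had folds of 3.56, 4.16 and 3.61, the siCtl_Veh libraries 4.89, 4.16 and 5.49, and the DMSO libraries 4.23, 5.23, 4.49 and 4.64. BRM014 libraries had no peak there, so the 4 libraries without DEX that lacked it were those with the inhibitor. In the ATPase experiment 2 of 4 siBRG1_siBRM and 2 of 4 siCtl_only libraries held it. Only 36 regions of the genome were called lost by this test, and with peaks at a −log10 q of at least 5 the HOXB3 region was not among them (exact permutation, adjusted p = 0.247), nor when peaks had to cover 50% of the region (adjusted p = 0.695). Among the best 37184 peaks of each library it gave no value. Both HOXB3 regions kept their call when any 1 of the 28 libraries was left out (highest adjusted p 0.00929 and 0.016).

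A wide difference with DEX in deposited fold stood at the end of HOXC9, chr12:54003047-54003480. In siGATA6_DEX libraries the folds were 11.0, 9.63 and 11.9, and no siGATA6_Veh library had a peak. In siCtl_DEX libraries they were 9.3, 10.2 and 10.1, against 3.62, 3.38 and 2.94 in siCtl_Veh libraries. In DEX_DMSO libraries they were 13.4, 13.0, 12.2 and 9.75, against 3.53 in the 1 DMSO library with a peak. With BRM014 they were 5.08, 5.39, 5.3 and 5.95 in DEX_BRM014, against 3.55, 3.42 and 4.0 in 3 of 4 BRM014 libraries. Each DEX group lay above its group without DEX, and DEX_BRM014 lay below DEX_DMSO. Presence alone called it gained in siGATA6 cells only, because the siCtl_Veh libraries, 1 DMSO library and 3 of 4 BRM014 libraries already had a weak peak. The weak peaks of the siCtl_Veh libraries also made the region count as lost with siGATA6 in vehicle. With the same number of best peaks per library it was gained with DEX both in DMSO and in BRM014. A fold is the value of a single peak and was not tested.

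The next region along, chr12:54003553-54003860, 370 bp from the centre to the end of HOXC9, went the other way. It was held by 2 of 14 libraries with DEX and by 10 of 14 without. DMSO libraries had folds of 4.44, 4.12, 4.3 and 4.15 and siGATA6_Veh libraries 4.51, 4.2 and 4.05, while DEX_DMSO, DEX_BRM014 and siGATA6_DEX libraries had no peak and 2 siCtl_DEX libraries had 2.06 and 3.09. The pair of HOXC9 regions lie close together, and whether peak calling split their reads was not tested. In the ATPase experiment 1 of 4 siBRG1_siBRM libraries held it, with a fold of 3.55, against 4 of 4 siCtl_only libraries at 3.46, 3.81, 3.76 and 3.96. BRM014 libraries lacked it.

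**Figure D5:**
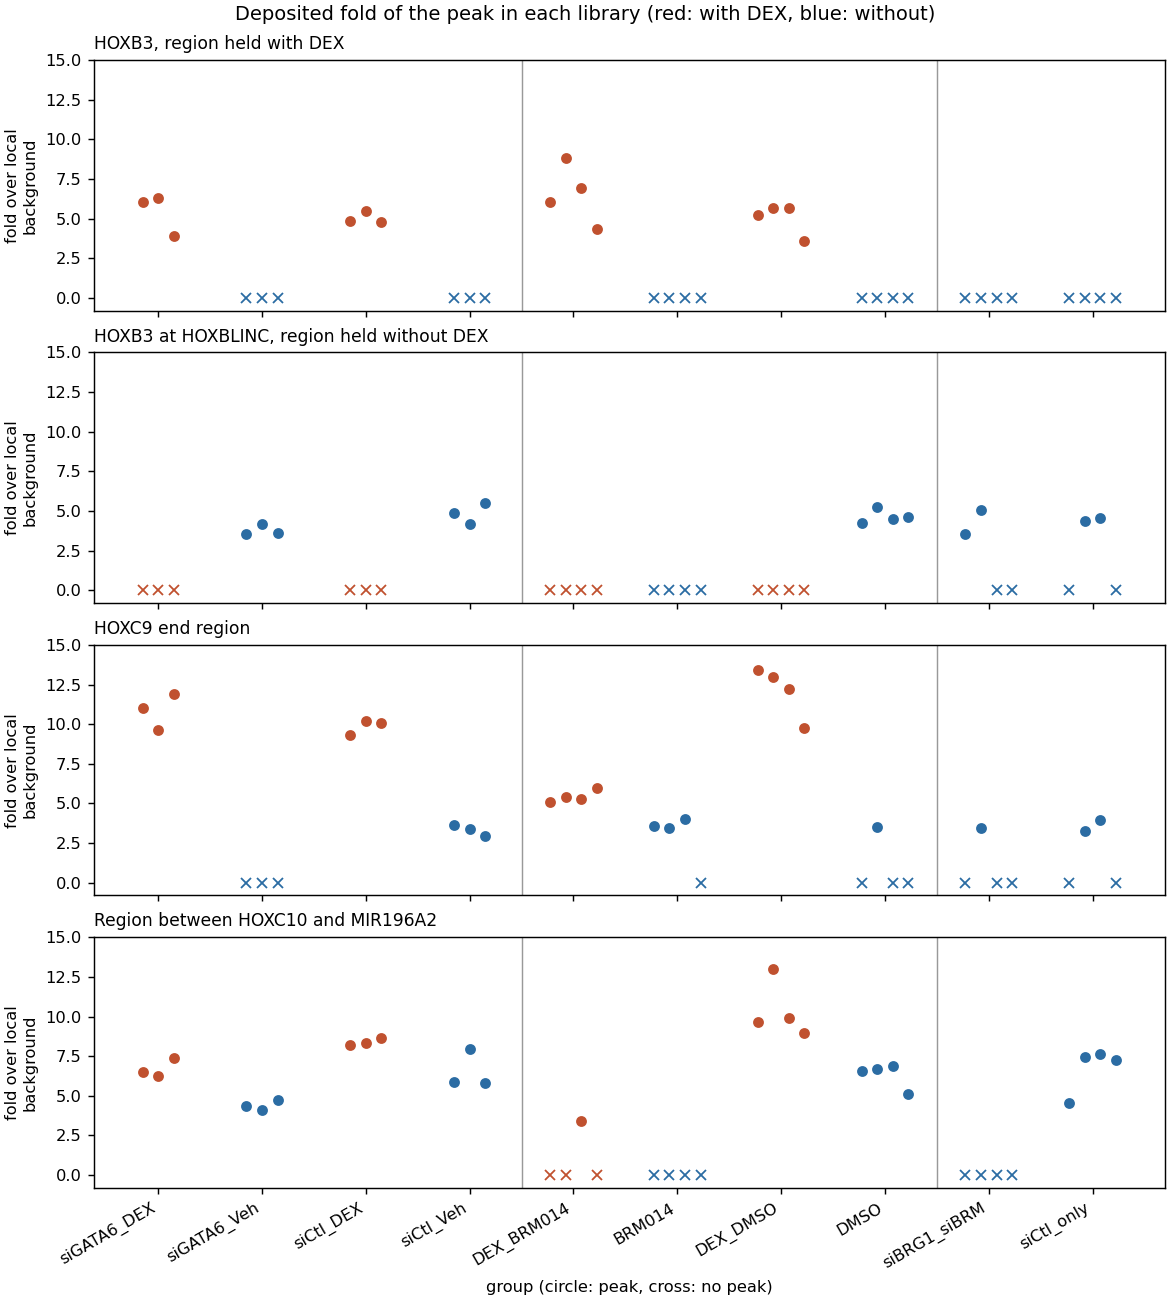
Deposited fold over local background (y axis, linear) of the peak in each library at 4 HOX regions, by group (x axis); circles are peaks, crosses at 0 are libraries without a called peak, red with DEX and blue without. The first HOXB3 region has peaks in the 14 DEX libraries alone, the second in none of them, the HOXC9 region is highest with DEX, and the region between HOXC10 and MIR196A2 is missing in BRM014 and siBRG1_siBRM libraries.

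Other regions lost after DEX lay between HOXB6 and HOXB8, trunk-level genes. At chr17:48604898-48605096 beside HOXB6 no siCtl_DEX library had a peak, against folds of 6.62, 6.06 and 5.59 in siCtl_Veh, but siGATA6_DEX libraries had 4.21, 5.28 and 3.52, against 5.2, 5.82 and 7.06 in siGATA6_Veh. At 4 h, 1 of 4 DEX_DMSO libraries held it at 4.92, against 6.08, 4.64, 5.96 and 4.75 in DMSO libraries. At chr17:48605506-48605756 no siCtl_DEX library and 1 siGATA6_DEX library held a peak, against 3 of 3 in siCtl_Veh and in siGATA6_Veh, while 3 of 4 BRM014 and 4 of 4 siBRG1_siBRM libraries held one. At chr17:48612068-48612328 beside HOXB8, 0 of 3 siCtl_DEX libraries held a peak, against 3 of 3 in siCtl_Veh, and in siGATA6 cells 0 of 3 with DEX, against 1 of 3 with vehicle. Single losses after 2 h were also called inside HOXA10 and beside HOXC11. At 4 h the regions lost in DMSO were, besides the HOXBLINC and HOXC9 regions, 2 at HOXB3: chr17:48547486-48547759 and chr17:48572879-48573074, which were lost with BRM014 without DEX too.

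GATA6 siRNA separated few HOX regions. In vehicle 1 was gained and 3 lost of 191 (0.524% and 1.57%), against 0.374% and 0.658% of all regions. With DEX 1 was gained and 2 lost (0.524% and 1.05%), against 0.566% and 0.597%. The lost share was above that of all regions in both, on few regions, and was not tested. Leaving out 1 library raised these 3 calls with DEX to 4 to 8, with 8 without siGATA6_DEX replicate 2, 7 without siGATA6_DEX replicate 3 and 5 without siCtl_DEX replicate 1 or 3. In vehicle the 4 calls became 7 without siGATA6_Veh replicate 3 or siCtl_Veh replicate 2. The gain in vehicle was inside HOXA11, a gene of limb and uterine patterning, at chr7:27184402-27184566, with folds of 4.03, 4.77 and 5.35 in siGATA6_Veh libraries and no peak in siCtl_Veh libraries. In HOXD8, chr2:176130153-176130406 had no peak in siGATA6_Veh libraries, against 7.61, 4.44 and 6.66 in siCtl_Veh, and in HOXA10, chr7:27172007-27172109 had none, against 3.12, 4.0 and 3.31. With DEX, 2 of 3 siGATA6_DEX libraries held each of the HOXD8 and HOXA10 regions. Inside HOXA3 and HOXA5, chr7:27143314-27143466 had no peak in siGATA6_DEX libraries, against 4.68, 4.22 and 4.36 in siCtl_DEX, and it was held in 1 of 3 siCtl_Veh and in none of the other libraries of the series. None of these regions was called with siGATA6 both in vehicle and with DEX. The called HOX regions ranked low, with medians of 15.7 to 20.9 in the groups that held them, but so did all regions called in these comparisons, with medians of 17.4 to 23.1.

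Of all 209 HOX regions, 35 or 16.7% were called in at least 1 comparison, against 15.3% of 259704 regions: 16 in HOXB, 10 in HOXC, 5 in HOXA and 4 in HOXD. The other genes of the HOX system were read from a list of 28 cofactors and regulators, such as the MEIS partners of HOX proteins, Polycomb and Trithorax members and retinoic acid receptors. With BRM014 without DEX, 11 of them or 39.3% had a lost region within 10 kb, against 15 of 39 HOX genes or 38.5% and 29.7% of all protein-coding genes. With DEX it was 13 or 46.4%, against 17 HOX genes or 43.6% and 32% of all genes. With siBRG1_siBRM it was 5 or 17.9%, against 3 HOX genes or 7.69% and 19.3% of all genes. Neighbouring HOX genes share regions, so genes are not independent counts. The retinoic acid receptor gene RARA had 5 lost regions with BRM014 without DEX, 3 with DEX and 3 with siBRG1_siBRM. After 2 h of DEX in siCtl cells 3 of the 28 or 10.7% had a gained region, PBX3 and CTCF among them, against 11.4% of all genes.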

How the data were processed

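ATAC-seq of BT549 cells was deposited as 1 peak list per library for 36 libraries in 3 experiments. The tools named in the submitters' processing notes are MACS2, HOMER, SAMtools and bcl2fastq, with the GRCh38 (hg38) build. Which aligner, read shifting, duplicate handling and caller settings were used is not given in the sources used here. The authors deposited for each peak a fold over local background, a −log10 p and −log10 q and an integer score, all as written by the caller and separately for each library; they describe that peak only. The lists hold no read totals, so no counting interval is given.

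Peaks were merged where they overlapped by at least 1 bp, within an experiment or, for pooled tests, over all 36 libraries. Regions were called gained or lost when every library of one group and none of the other held them. BRM014 was also tested within DEX levels by an exact two-sided permutation test (4900 arrangements, smallest p 0.000408) with Benjamini-Hochberg adjustment over all regions at 0.05. The pooled tests over 4 DEX settings and 3 SWI/SNF settings were added after seeing the data. The members, gene lists and tests were chosen with earlier results of these data known. Named regions are those called in any comparison and those held by all 36 libraries. Where labels name no separate cultures beyond biological replicates, p-values measure the spread between these samples. Alternatives were peaks at −log10 q of at least 5, equal numbers of best peaks, 50% cover, other gene windows, left-out libraries and a replicate block. MDA-MB-231 cells were not analysed here. All-or-none calls and permutation were tested on simulated data. Python 3.11.15, numpy 2.4.6, pandas 2.3.3, scipy 1.17.1 and matplotlib 3.10.9 were used.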

Additional observations from a re-analysis of the deposited data

Results flagged for a closer look

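In groups of 4 libraries, 10 of 81 sets of values had 1 library whose gap to the nearest other exceeded Dixon's 95% critical share of the whole range, where chance gives about 1 in 20. HOXC regions held in DEX_BRM014 libraries were lowest at 16, against 23 to 24 in the others, and in the same group the share of siCtl_Veh HOX regions held was lowest at 39.1%, with the next at 46.7%. HOX regions held in siCtl_only libraries were highest at 92, with the next at 83, and HOXD regions there were lowest at 7, against 10 in the others. The median rank of HOX peaks was lowest in 1 DEX_DMSO library at 36.3, with the next at 41.7, and highest in 1 DMSO library at 39.1, with the next at 33.6. At the HOTAIR region beside HOXC11 the fold of 1 DEX_DMSO library was 6.48, with the next at 5.26. At the region between HOXC10 and MIR196A2 the fold was lowest at 5.1 in 1 DMSO library, with the next at 6.59, and at 4.57 in 1 siCtl_only library, with the next at 7.26. Inside HOXD11 the fold was highest at 7.25 in 1 DMSO library, with the next at 6.28.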

How the results depend on the processing

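Counts are HOX regions called in either direction. With peaks at −log10 q of at least 5 there was 1 for siGATA6 in vehicle (4 with all peaks), 5 for BRM014 without DEX (12), 3 for DEX 4 h in DMSO (5) and 1 for siBRG1_siBRM (2). With the same number of best peaks in every library there was 1 for siGATA6 with DEX (3), 2 for BRM014 without DEX, 4 for BRM014 with DEX (7), 3 for DEX 4 h in DMSO, 2 for DEX 4 h in BRM014 (1), 3 for BRM014 within DEX levels (7), 1 for DEX over 4 settings (2) and 7 for SWI/SNF over 3 settings (14). Of the 7 for SWI/SNF over 3 settings, 6 were higher and 1 lower with SWI/SNF blocked, while the 14 with all peaks were lower. With the same number of best peaks the direction turned at HOXC11 in BRM014 within DEX levels (1 more library with BRM014). Over the 3 settings it turned at HOXD11 (3 more), HOXA13 (1 more) and HOXB3 at chr17:48575074-48575565 (1 more). With 50% cover there were 6 for siGATA6 with DEX, 7 for BRM014 without DEX, 0 for DEX 4 h in BRM014, 3 for BRM014 within DEX levels and 5 for SWI/SNF over 3 settings. With centres inside genes only, where fewer regions count, there were 4, 3, 3, 0, 0 and 6 for BRM014 without DEX, BRM014 with DEX, DEX 4 h in DMSO, BRM014 within DEX levels, siBRG1_siBRM and SWI/SNF over 3 settings. Testing only regions held by at least 4 of 16 libraries gave 12 for BRM014 within DEX levels. Apart from the narrower gene window and this filter, the cause of these shifts was not tested.

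Leaving out 1 library gave 9 to 10 for DEX 2 h in siCtl (7), 7 to 10 for DEX 2 h in siGATA6 (6; 10 without siGATA6_DEX replicate 3), 5 to 7 for siGATA6 in vehicle (7 without siGATA6_Veh replicate 3 or siCtl_Veh replicate 2) and 4 to 8 for siGATA6 with DEX (8 and 7 without siGATA6_DEX replicates 2 and 3, 5 without siCtl_DEX replicate 1 or 3). It gave 12 to 18 for BRM014 without DEX, 7 to 10 with DEX, 5 to 8 for DEX 4 h in DMSO (8 without DMSO replicate 2), 1 to 2 for DEX 4 h in BRM014 (2 without BRM014 replicate 2 or 4), 7 to 9 for BRM014 within DEX levels, 2 to 4 for siBRG1_siBRM (4 without siBRG1_siBRM replicate 1 or 4 or siCtl_only replicate 1), 2 to 3 for DEX over 4 settings and 13 to 21 for SWI/SNF over 3 settings. Fewer libraries make an all-or-none call easier. For the named regions, 503 of 504 values with 1 library left out kept direction and call. Of 116 values under other processing, 72 kept both, 40 lost the call and 4 turned round, the last all with the same number of best peaks. Without that setting 72 of 106 kept both and 34 lost the call. No named region thus kept its call with the same number of best peaks, and those without a peak among the best gave no value.

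Same-numbered libraries had correlations of −0.0347 to 0.1, never over 0.1 in every pair, and the numbers were not taken as pairs. In the GATA6 experiment all of these were positive, from 0.0173 to 0.1. There the own number matched best in 3 of 3 pairs for both siGATA6 comparisons and in 2 of 3 for both DEX comparisons. Whether these libraries are weakly paired was not tested. With a replicate block the all-or-none counts are the same by construction, and BRM014 within DEX levels gave 0 calls, where the smallest p a block allows is 0.00781. Presence of a peak depends on the caller's threshold, and the read depth behind it is unknown.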
